A study of Mus musculus with 6 samples.

Results

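RNA of the Lrp genes, which encode the LDL receptor-related proteins, was measured in neurospheres. These are the floating colonies that neural stem and progenitor cells form in culture. The genes were taken by name: Lrp1, Lrp1b, Lrp2, Lrp4, Lrp5, Lrp6, Lrp8, Lrp10, Lrp11 and Lrp12, 10 of the 22180 genes tested. The family was singled out because Lrp11 was higher on every MG array with a small spread, so its difference between MG and PBS is a description and carries no test. All 10 had a probe set (a group of array probes summarised to 1 value) that names that gene only. The probe set with the highest mean over the 6 arrays was used. Lrp6 and Lrp11 had 2 such probe sets and the other 8 members had 1.

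The cells came from CD1 mice, an outbred stock, aged 2 months. Their mothers had been injected into the abdomen 2 times a day from gestational day 12 until they gave birth, in the control group with PBS and in the other with MG at 0.5 mg/kg. MG is taken to be methylglyoxal, a reactive by-product of glycolysis, from the title of the series. Cells of the subventricular zone were cultured for 7 days with EGF at 20 ng/ml and FGF2 at 10 ng/ml, in both groups, and 3 cultures per group were each hybridised to an Affymetrix Mouse Gene 2.0 ST array. The titles speak of primary neurospheres and the sample descriptions of secondary ones. The labels do not say whether animals of a group were littermates, so the spread between the 3 arrays may not cover the spread between mothers.

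LDL receptor-related proteins are single-pass membrane receptors whose outer part carries cysteine-rich repeats that hold ligands. Lrp1, Lrp1b and Lrp2 are very large receptors that bind many ligands and carry them into the cell. Lrp5 and Lrp6 stand beside Frizzled receptors as co-receptors for Wnt proteins, Lrp8 receives reelin, and Lrp4 binds agrin at the neuromuscular junction. In neural tissue these receptors are known for lipid uptake, for cell migration and for signals that govern neural progenitors.

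The upstream sequences of Lrp11 and Lrp2 are shown because these members had the largest differences between MG and PBS over all 6 arrays. They are the 250 bases before the gene's start in the RefSeq table of build GRCm38.p6, 5′ to 3′ on the gene's strand. Capitals mark GGGCGG on either strand, which reads CCGCCC where it lies on the other strand, a motif known as the GC box.
Lrp11, chr10:7589567-7589816, plus strand: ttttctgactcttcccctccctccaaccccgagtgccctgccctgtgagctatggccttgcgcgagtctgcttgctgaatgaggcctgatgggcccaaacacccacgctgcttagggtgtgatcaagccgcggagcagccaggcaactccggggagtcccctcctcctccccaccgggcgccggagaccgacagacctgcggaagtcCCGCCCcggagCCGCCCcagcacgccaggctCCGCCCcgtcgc
Lrp2, chr2:69586030-69586279, minus strand: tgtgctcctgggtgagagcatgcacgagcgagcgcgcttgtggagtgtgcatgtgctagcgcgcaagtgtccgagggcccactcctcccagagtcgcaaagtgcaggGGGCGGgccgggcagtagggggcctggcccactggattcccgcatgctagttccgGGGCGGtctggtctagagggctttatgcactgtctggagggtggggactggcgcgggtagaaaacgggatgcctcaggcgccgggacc
Lrp11 held 3 copies, which begin 43, 32 and 12 bases before the start and do not overlap. Lrp2 held 2, at 143 and 88 bases. At least 1 copy stood in 32.7% of the 32851 upstream windows in the table, and 3 or more in 8.47%. Upstream sequences were matched for 5 members, namely Lrp1, Lrp2, Lrp8, Lrp10 and Lrp11, as 7 windows, of which Lrp8 had 3. Lrp1 held 1 copy of GGGCGG, and neither Lrp10 nor any Lrp8 window held these letters. Neither TATAAA nor CCAAT, searched on both strands, stood in any of the 7 windows, against 12.4% and 33.9% of all windows. The CG dinucleotide occurred 19 times in the Lrp11 window and 18 times in that of Lrp2, where the median over all windows was 6. Of all windows, 21.7% had 18 or more. The windows of Lrp10 and the first Lrp8 window also had 18 each, while Lrp1 had 13. The other Lrp8 windows had 5 and 2. These counts describe letters only, and the arrays did not measure what binds there.

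Values are the deposited log2 values. A probe set's brightness also depends on its own sequences, so levels are compared between arrays and not between genes. A reference for dim genes, below which 95% of 1394 olfactory and vomeronasal receptor genes had their mean, lay at 5.02. All 10 members had means above it in both groups. The array medians ran from 5.25 to 5.42. All 9 measured stem and progenitor cell markers, among them Nes and Sox2, were above the reference in both groups. The same held for all 8 astrocyte, all 8 neuroblast and neuron and all 7 measured oligodendrocyte lineage markers. For some other cell types, part of the markers lay below the reference in both groups, 4 of 8 for microglia and macrophages (Aif1, Itgam, Ptprc and Tmem119) and 3 of 8 for endothelium (Cldn5, Tek and Emcn). In a culture of mixed cells, fewer cells of a type and less RNA per cell cannot be told apart.

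Lrp11 had higher values in all 3 MG cultures than in any PBS culture. The gene encodes a small transmembrane member of the family whose role is less well known than that of its relatives. PBS replicates 1, 2 and 3 stood at 8.42, 8.41 and 8.30, and MG replicates 1, 2 and 3 at 8.99, 8.88 and 8.98; values below follow this order. The groups did not overlap, and a gap of 0.46 lay between the highest PBS and the lowest MG array. The PBS mean was 8.37 ± 0.07 and the MG mean 8.95 ± 0.06 (SD, n = 3 each). The MG minus PBS difference was 0.57 on the log2 scale (standard error, SE, 0.11; 95% confidence interval, CI, 0.32 to 0.83), or 1.49-fold. Since the gene was picked for this difference, the size may be overstated and the interval does not serve as a test. Among the 13725 genes above the reference in both groups, 30 had a difference at least as high, Lrp11 included. Among all 22180 genes tested, 92 did.

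The second Lrp11 probe set, which the choice of the gene did not use, was dimmer and also higher in MG. It stood at 5.32, 5.56 and 5.12 in the PBS cultures and at 5.67, 5.72 and 5.92 in the MG cultures. Here too the groups did not overlap, though the highest PBS and the lowest MG array lay close together. The MG minus PBS difference was 0.44 on the log2 scale (SE 0.16, 95% CI 0.07 to 0.81), fitted over all 41345 probe sets. Both probe sets read the same 6 RNA samples, so they are not separate evidence about the animals. With the 2 averaged, the log2 difference of Lrp11 was 0.51.

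**Figure D1:**
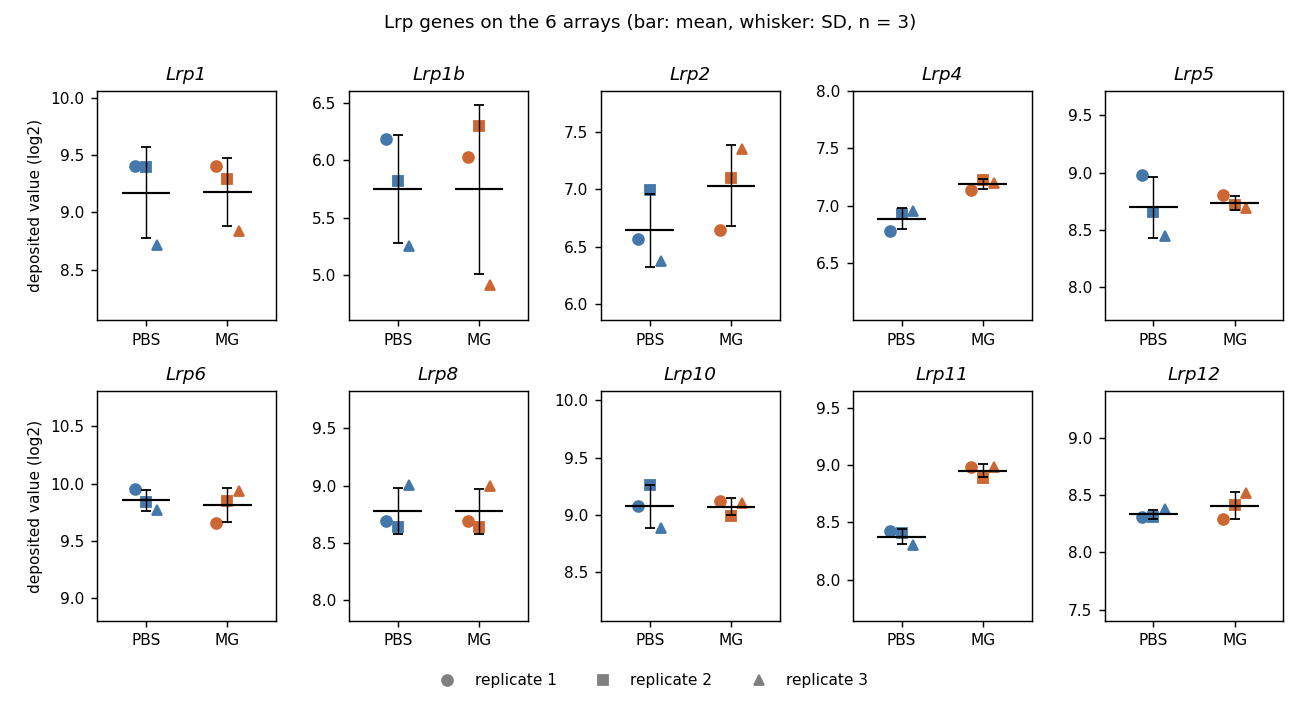
Deposited log2 values of the 10 Lrp genes in the 3 PBS and 3 MG cultures, 1 panel per gene, each with a y axis of the same span but its own offset. Symbols give the replicate number, bars the mean and whiskers the SD (n = 3). The groups do not overlap for Lrp11 and Lrp4, and replicate 3 is the lowest array of each group for Lrp1, Lrp1b and Lrp5 and the highest of each for Lrp8 and Lrp12.

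Lrp4 was the only other member with no overlap between the groups. It encodes the receptor for agrin that activates the kinase MuSK, and it also binds sclerostin and its relatives, which restrain Wnt signalling. It stood at 6.78, 6.93 and 6.95 in the PBS cultures and at 7.14, 7.23 and 7.20 in the MG cultures, with a gap of 0.19. The MG minus PBS difference was 0.30 on the log2 scale (SE 0.11, 95% CI 0.04 to 0.56), or 1.23-fold. Thus 2 of 10 members did not overlap, both higher in MG. Over all genes tested the share was 7.34% in either direction, with 4.03% higher and 3.31% lower in MG. Because the family was chosen on this contrast, the count is set beside that share and nothing is read from it.

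No member, and no gene of the 22180, passed limma's moderated test at an adjusted p of 0.05 (0% called). The ordinary linear model without moderation also gave 0, and either model gave 712 genes with an unadjusted p under 0.05, or 3.21%. Means were higher in MG for 6 members and lower for 4, where 53.8% of all genes had higher means. The median log2 difference was 0.02 over the members and 0.01 over all genes. For 7 members the log2 difference was smaller than 0.1 in size.

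**Figure D2:**
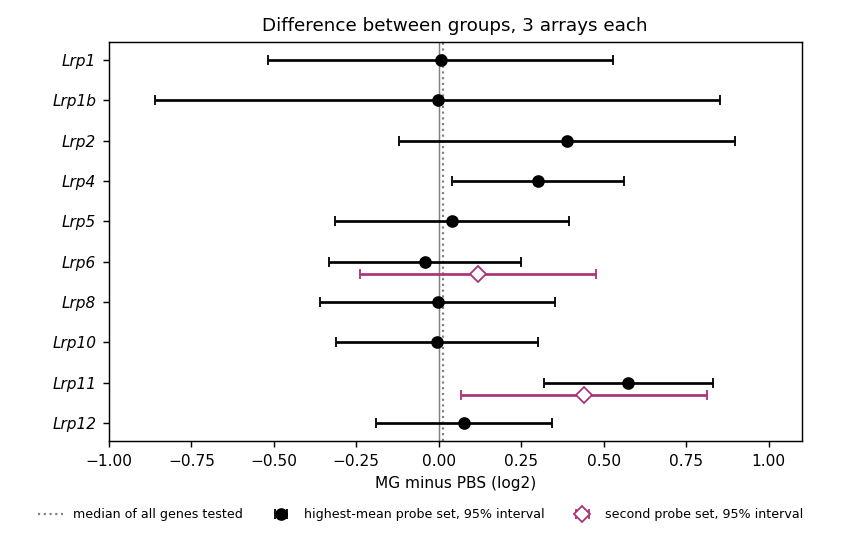
Log2 difference between MG and PBS for each Lrp gene, with its 95% confidence interval from limma (3 arrays per group). Filled circles are the probe set with the highest mean, open diamonds the second probe set of Lrp6 and Lrp11, and the dotted line is the median of all genes tested, 0.01. The intervals include 0 for 8 of the 10 genes, and those of Lrp4 and Lrp11 lie above it. Over all genes tested, 3.21% had an unadjusted p under 0.05 in limma's test, which is where the interval leaves out 0. None passed after adjustment. The family was chosen on this contrast, so nothing is read from the count.

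Lrp2 had a higher mean in MG, but its groups overlapped. Lrp2, or megalin, is an endocytic receptor of absorptive and neural epithelia that binds sonic hedgehog, BMP4 and vitamin carriers. It stood at 6.57, 6.99 and 6.37 in the PBS cultures and at 6.65, 7.10 and 7.35 in the MG cultures. PBS replicate 2 was above MG replicate 1, and only MG replicates 2 and 3 lay above every PBS array. The MG minus PBS difference was 0.39 on the log2 scale (SE 0.22, 95% CI -0.12 to 0.90). Without MG replicate 1 it was 0.58 and it was 0.23 without MG replicate 3 and 0.25 without PBS replicate 3. With both arrays numbered 3 left out it was 0.10, where Lrp4 had 0.33. Among its ligands, Shh was below the reference in both groups (4.45 ± 0.22 in PBS, 4.44 ± 0.14 in MG, SD, n = 3).

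The large endocytic receptors Lrp1 and Lrp1b had nearly equal means in both groups, and each was lowest on replicate 3 of its group. Lrp1 clears apolipoprotein E particles and complexes of proteases with their inhibitors. It stood at 9.40, 9.39 and 8.72 in the PBS cultures and at 9.40, 9.29 and 8.84 in the MG cultures. The log2 difference was 0.01 (95% CI -0.52 to 0.53). Lrp1b, a close relative of Lrp1 that takes up ligands more slowly, had values of 6.18, 5.82 and 5.25 in PBS and 6.03, 6.30 and 4.91 in MG. Its log2 difference was 0.00 (95% CI -0.86 to 0.85), the widest of the 10. On MG replicate 3 it was below the reference. Without PBS replicate 3 the log2 difference of Lrp1 was -0.22 and without MG replicate 3 it was 0.17, and that of Lrp1b was -0.25 and 0.41 in the same fits.

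The Wnt co-receptors Lrp5 and Lrp6 overlapped between the groups. Lrp5 had values of 8.98, 8.66 and 8.45 in PBS and 8.80, 8.72 and 8.69 in MG. All 3 MG arrays fell inside the PBS range, and the log2 difference was 0.04 (95% CI -0.31 to 0.39). Lrp6 had values of 9.95, 9.84 and 9.77 in PBS and 9.65, 9.85 and 9.94 in MG, and a log2 difference of -0.04 (95% CI -0.33 to 0.25). Its second probe set was dimmer, with means of 5.81 ± 0.17 and 5.93 ± 0.16 (SD, n = 3), and its log2 difference of 0.12 had the opposite sign (95% CI -0.24 to 0.48). The interval of either probe set includes 0, so no direction can be given for Lrp6.

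Lrp8, Lrp10 and Lrp12 also overlapped between the groups. Lrp8, known too as apolipoprotein E receptor 2, passes the reelin signal to the adaptor Dab1. It stood at 8.69, 8.64 and 9.01 in the PBS cultures and at 8.69, 8.64 and 9.00 in the MG cultures, so the 2 groups covered nearly the same range. Its log2 difference was 0.00 (95% CI -0.36 to 0.35). Lrp10 and Lrp12 belong to a branch of the family, with Lrp3, whose outer part carries CUB domains. Lrp10 ran from 8.89 to 9.27 in PBS and from 8.99 to 9.13 in MG, and its log2 difference was 0.00 (95% CI -0.31 to 0.30). Lrp12 had values of 8.31, 8.31 and 8.38 in PBS and 8.29, 8.42 and 8.52 in MG, with a log2 difference of 0.08 (95% CI -0.19 to 0.34). Its spread over the 6 arrays, 0.23 from the lowest to the highest, was the smallest among the members. For these 3 genes and for Lrp5 and Lrp6 the intervals still allow log2 differences of 0.25 or more in at least 1 direction.

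The arrays numbered 3 stood apart in 3 members, in the same direction in both groups. An earlier analysis of these values had found the arrays numbered 3 far from the rest over many genes, so this too is a description. Relative to replicates 1 and 2 of its own group, replicate 3 was lower by 0.68 for Lrp1 in PBS and by 0.51 in MG, while for Lrp1b it differed by -0.75 and -1.25. For Lrp8 it was higher by 0.34 in PBS and by 0.33 in MG. In these 3 genes both arrays numbered 3 lay outside the range of the other 4. Over all genes this held for 31.4%, with the arrays numbered 3 higher in 15.7% and lower in 15.7%, so 3 of 10 members is close to the share of the background. The difference between replicate 3 and the others was larger in size than the MG minus PBS difference in 6 members. For Lrp11 it was -0.12 in PBS and 0.05 in MG, far under its difference between groups. Since Lrp11 was picked for higher MG values and a small spread, this follows from the choice.

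**Figure D3:**
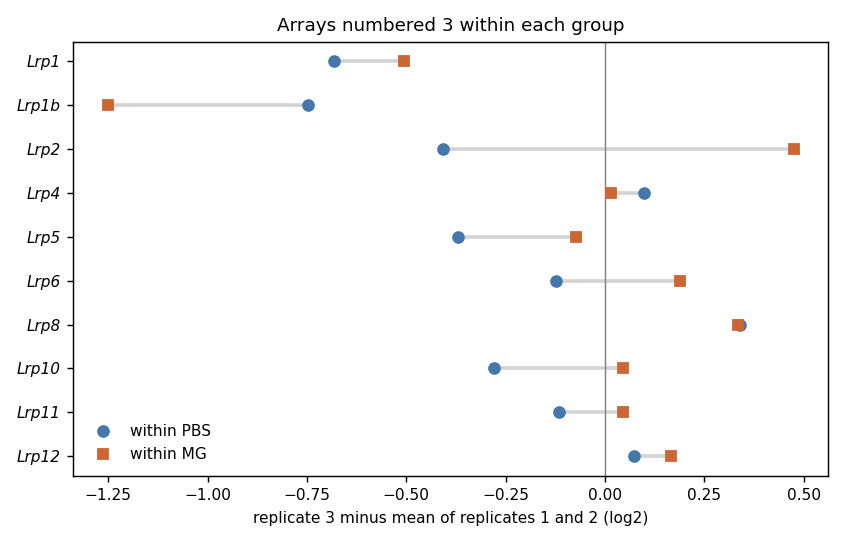
Replicate 3 minus the mean of replicates 1 and 2, on the log2 scale, within the PBS group (circles) and within the MG group (squares) for each Lrp gene. Lrp1 and Lrp1b lie below 0 and Lrp8 lies above 0 in both groups, while Lrp2 has opposite signs, -0.41 in PBS and 0.48 in MG.

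Markers of cell type and state moved with the arrays numbered 3. Relative to the mean of the 6 arrays, the 8 astrocyte markers averaged -0.40 on PBS replicate 3 and -0.41 on MG replicate 3, and between -0.02 and 0.38 on the others. All 8 were above the reference in both groups, and the sum of their unlogged values ran from 11070 to 14660 in PBS and from 12301 to 15783 in MG. On those 2 arrays the 15 measured replication and mitosis genes averaged 0.42 and 0.45, against values from -0.39 to -0.10 on the other 4. The 12 glycolysis genes averaged -0.38 and -0.51 there, against 0.00 to 0.45 on the rest. Their part in the values of Lrp1, Lrp1b and Lrp8 was not tested. The log2 difference of Lrp11 was 0.52 with both arrays numbered 3 left out, a small change that the choice of a gene with small spread favours. All 8 astrocyte markers had higher means in MG, as 53.8% of all genes did, with a median log2 difference of 0.13. The groups did not overlap for 1 of them, Slc1a3, against 7.34% of all genes. Pericyte and fibroblast markers were mixed, with lower means in 5 of 8 and a median log2 difference of -0.21, and Dcn, Lum and Kcnj8 lay below the reference in both groups. For 2 of these 8, Dcn and Col1a1, every MG array was lower, against 3.31% of all genes. Acta2, the smooth muscle actin gene, had the largest difference of the list and the opposite sign, 0.76 (SE 0.37), with overlapping groups. It makes up most of the list's summed unlogged values, which ran from 714.0 to 1623 in PBS and from 1445 to 2058 in MG. Glycolysis genes had lower means in MG in 11 of 12, where 53.8% of all genes had higher means, with a median log2 difference of -0.11. The groups overlapped for all 12, and none had an unadjusted p under 0.05 in limma's test. Their average ran from -0.38 to 0.45 among the PBS arrays alone, so the 12 are not separate observations. Replication and mitosis genes had higher means in 10 of 15, with a median of 0.05. The median differences of the remaining marker lists were -0.01 for stem and progenitor cells, 0.09 for neuroblasts and neurons, 0.00 for the oligodendrocyte lineage, 0.09 for ependymal cells, -0.05 for choroid plexus, -0.03 for microglia and macrophages and -0.06 for endothelium. The part of these lists in the Lrp11 difference was not tested.

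The other receptors of the family were followed in 8 measured genes, 5 with higher and 3 with lower means in MG. Over all genes, 53.8% had higher means. Lrp3, which belongs with Lrp10 and Lrp12, was the only one of the 8 with no overlap between the groups, where 7.34% of all genes had none. It stood at 7.59, 7.57 and 7.47 in the PBS cultures and at 7.63, 7.75 and 7.66 in the MG cultures, which differ by 0.13 on the log2 scale (SE 0.11). Vldlr, the second reelin receptor, had values of 9.34, 9.04 and 8.07 in PBS and 9.12, 8.83 and 8.15 in MG. As for Lrp1, replicate 3 was the lowest array of each group. Sorl1, a sorting receptor, had a log2 difference of 0.21 (SE 0.27), and Ldlrad1 one of -0.32 (SE 0.18).

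Ligands and helpers of the endocytic receptors had higher means in MG in 20 of 28 measured genes, where 53.8% of all genes did. The median log2 difference was 0.09, and none passed the adjusted threshold. This median depended on single arrays, at -0.01 without PBS replicate 3, 0.01 without MG replicate 1 and 0.10 without PBS replicate 2. Apoe, the main lipoprotein ligand of the brain, had values of 7.89, 8.18 and 7.11 in PBS and 8.20, 8.22 and 7.42 in MG. Replicate 3 was again the lowest of each group. Lpl, or lipoprotein lipase, differed by 0.25 (SE 0.13), Thbs1, or thrombospondin 1, by 0.43 (0.22) and the protease inhibitor gene A2m by -0.19 (0.23). Rbp4, a retinol carrier that Lrp2 takes up, was lower on every MG array, at 5.29 ± 0.07 against 5.43 ± 0.03 in PBS (SD, n = 3). Ptn, which encodes the growth factor pleiotrophin, was higher on every MG array, at 11.9 ± 0.03 against 11.8 ± 0.06, and was named after its values were seen. These were the 2 of 28 genes with no overlap, 1 in each direction, against 7.34% of all genes. Among 18 measured chaperones, adaptors and proteases, 13 means were higher and 5 lower in MG, and the median difference was 0.04. Lrpap1, the chaperone that keeps ligands off the receptors during their synthesis, had a log2 difference of -0.12 (SE 0.13). Numb, an endocytic adaptor, differed by 0.17 (0.16), Mapk8ip2, a scaffold that binds receptor tails, by 0.28 (0.22), and Adam10, a protease that sheds membrane proteins, by -0.09 (0.12). Mesd, the chaperone of Lrp5 and Lrp6, was not analysed here.

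In the reelin list, 10 of 17 measured genes had higher means in MG, where 53.8% of all genes did. The median log2 difference was 0.04. Reln, the ligand, was barely above the reference, at 5.35 ± 0.29 in PBS and 5.09 ± 0.63 in MG (SD, n = 3). On MG replicate 3 it was below the reference, at 4.37. On PBS replicate 3 it was at 5.0179, just under the reference of 5.0185. Dab1, the adaptor, had 8.95 ± 0.10 and 9.00 ± 0.11, with a log2 difference of 0.05 (SE 0.12). Mapt, which encodes tau, differed by 0.25 (0.14), the kinase gene Src by 0.19 (0.14) and the adaptor gene Crk by -0.15 (0.12). For Lrp4, 5 of 10 listed partners had higher means, and Musk, Rapsn, Chrna1, Chrnd and Chrne lay below the reference in both groups. Agrn, the ligand, stood at 9.42 ± 0.11 and 9.46 ± 0.16 (SD, n = 3). Sost, which encodes sclerostin, differed by -0.26 (0.16), Dok7 by 0.13 (0.22) and Chrnb1 by 0.07 (0.14).

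Genes around the Wnt co-receptors were split between higher and lower means, where 53.8% of all genes had higher ones. Of 20 Wnt ligand and secretion genes, 10 means were higher and 10 lower, and the median log2 difference was 0.00. Wnt7b differed by 0.35 (SE 0.17), Wnt7a by 0.19 (0.19), Wnt4 by -0.16 (0.11) and Wnt9b by -0.27 (0.16). Of 33 Frizzled receptors and surface regulators, 21 means were higher and 12 lower, and the median was 0.03. Lgr6, a receptor for R-spondins, was lower on every MG array, at 5.79 ± 0.04 against 6.04 ± 0.20 in PBS (SD, n = 3). Fzd9 differed by 0.26 (0.15), the secreted Wnt inhibitor gene Sfrp1 by 0.22 (0.15) and the Dkk receptor gene Kremen2 by -0.12 (0.12). Dkk1, a secreted inhibitor of Lrp5 and Lrp6, lay close to the reference, at 5.03 ± 0.17 and 5.04 ± 0.06 (SD, n = 3). Of 24 genes of the cytoplasmic machinery and its targets, 9 means were higher and 15 lower, and the median was -0.02. Tcf7l1 differed by 0.28 (0.19), Dvl3 by 0.18 (0.12), the kinase gene Csnk1g3 by -0.20 (0.16) and the cyclin gene Ccnd1 by -0.13 (0.11). Besides Lrp3, Ptn, Rbp4 and Lgr6, the groups did not overlap for Notch1 in the reelin list, with MG higher, and Apc in the cytoplasmic list, with MG lower, both named after their values were seen. Notch1, Apc and Lgr6 were each the only such gene of their list, with 17, 24 and 33 genes measured. Over all genes the share was 7.34%. The lists of chaperones and adaptors, Lrp4 partners and Wnt ligands held no such gene. In none of the 8 lists did a gene pass limma's test over all genes after adjustment, and none had an unadjusted p under 0.05.

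The genes most like Lrp11 were sought among the other 13724 genes above the reference in both groups. Likeness was the root mean square difference from Lrp11 over the 6 arrays, each gene centred on its own mean. The 5 closest were Coq8b, a kinase-like protein of coenzyme Q synthesis (0.10 on the log2 scale), 4933432K03Rik (0.11), Fbxo7, a subunit of ubiquitin ligases (0.13), Id4, a helix-loop-helix inhibitor (0.13), and Cfap20dc (0.13). The median over all candidates was 0.32. In all 5 the groups did not overlap, which follows from the likeness itself. Coq8b had 6.34 ± 0.05 in PBS and 6.93 ± 0.17 in MG, and Id4 had 7.08 ± 0.10 and 7.65 ± 0.17 (SD, n = 3). Within the family, Lrp4 was the member closest to Lrp11, at 0.17 and place 66, and Lrp12 followed at 0.27 and place 2368. The place of Lrp4 restates its MG minus PBS difference of 0.30, the contrast used for the choice. The measure is not scaled, so a gene that hardly varies also comes fairly close. Lrp12 spanned only 0.23 over the 6 arrays and differed by 0.08, so its place shows no shared pattern.

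**Figure D4:**
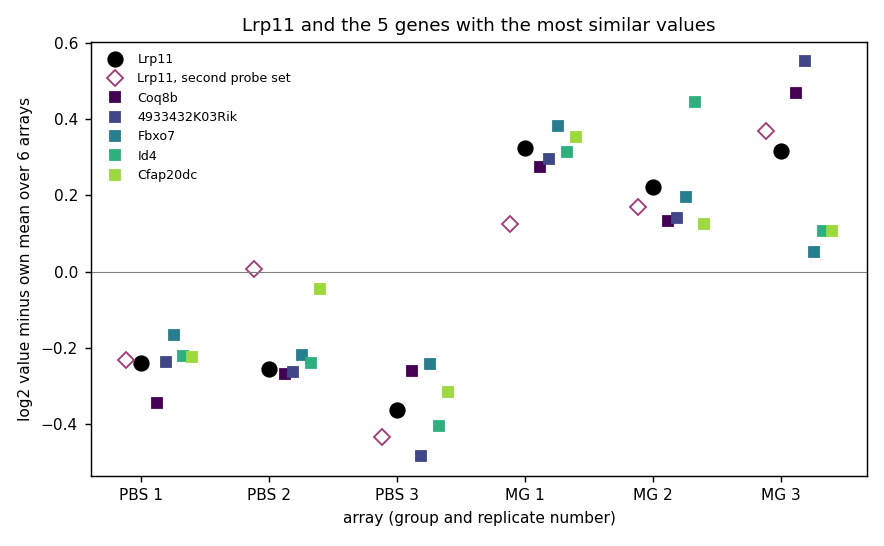
Log2 value minus the gene's own mean over the 6 arrays, by array, for Lrp11 (large circles), its second probe set (open diamonds) and the 5 genes closest to it (squares). Lrp11 lies below 0 on the 3 PBS arrays and above 0 on the 3 MG arrays, and so do the 5 genes, which were chosen for this likeness.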

How the data were processed

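RNA from 6 neurosphere cultures, 3 PBS and 3 MG, was measured on 6 arrays. The values deposited by the authors are 1 log2 value per probe set and array, from 0.73 to 13.81, the log2 scale being inferred from that range. The submitters' processing notes name Partek 6.6. How the background was corrected and the values normalised and summarised, and on which genome build, is not given in any source used.

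Of 41345 probe sets, 23521 named 1 gene, 1814 several and 16010 none here. Symbols were updated through the RefSeq gene table, and each of the 22180 genes took its probe set with the highest mean. MG was compared with PBS in limma 3.58.1 under R 4.3.3, with a two-sided moderated test without covariates and Benjamini-Hochberg adjustment over all genes at a threshold of 0.05, after the script was tested on simulated data. Lists were described by counts and medians, with no set test. Figures used matplotlib 3.10.9.

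Members, lists and alternatives were chosen with earlier results of these data known. Named were all members, direct partners, and per list the 2 genes at each end by moderated t among those above the reference, which left some partners outside the text. The number of arrays limits the precision, and log2 differences had a median standard error of 0.15. Alternatives changed the probe set choice, normalisation, moderation, array weights, dim genes, replicate block and arrays left out.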

Additional observations from a re-analysis of the deposited data

How the results depend on the processing

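Under every alternative 0 genes were called after adjustment, while 292 to 1288 features had an unadjusted p under 0.05. The log2 difference of Lrp11 stayed between 0.51 and 0.61 over the 16 alternatives. It was 0.51 with all probe sets, taken as the median of its 2, and 0.51 with averaged probe sets, more than 1 SD (the spread between replicates) below 0.57. With 1 array left out it ran from 0.54 to 0.61. Lrp11 was chosen for a small spread within groups, so this narrow range follows from the choice. Changes of moderation and the replicate block cannot alter the estimate. The median over the family ran from 0.0089 (without PBS replicate 3) to 0.15 (without PBS replicate 1). The members with no overlap numbered 2 to 4 with 1 array left out. They were 4 without MG replicate 1 (Lrp2, Lrp4, Lrp11 and Lrp12), and leaving out an array can only lose overlap. The count over all genes was 1629. It was 845 with dim genes left out, 3105 with all probe sets, 6925 with both arrays numbered 3 left out and 2822 to 4089 with 1 array left out, as fewer genes, more features or fewer arrays entered. Of 144 values of the other 9 members, 144 moved by less than 1 SD. Lrp1 and Lrp1b changed sign in 7 and 6 of the 16 alternatives. Lrp6 did so in 4, Lrp5 and Lrp8 in 3 each and Lrp10 in 2, while Lrp2, Lrp4, Lrp11 and Lrp12 kept their sign. Of 128 list medians, 8 moved by more than 1 SD of the list. The cause was not tested.

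By their values the 2 arrays numbered 3 went together, while numbers 1 and 2 did not pair the samples. Correlations of deviations from the group mean between same-numbered arrays were 0.22, 0.04 and 0.45 for numbers 1, 2 and 3. The last was the highest between any PBS and any MG array. Arrays numbered 3 had correlations from -0.37 to -0.21 with arrays of other numbers in the other group. PBS replicate 2 and MG replicate 1 (0.26) were closer to each other than to their own numbers. With the replicate block the log2 difference of Lrp11 was 0.57, 0 genes passed the adjusted threshold and 1063 had an unadjusted p under 0.05.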
